A study of Homo sapiens with 32 samples.

Results

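Clone G6 is 1 of 3 single-cell clones with IGF2BP2 targeted by Cas9, all made from the human colorectal carcinoma line HCT116. It was made with another guide RNA than the other 2 clones, B7 and F6, which share theirs. Its 4 libraries were chosen by clone name and compared with the 8 libraries of B7 and F6, out of 32 poly(A) RNA libraries in the study. All 3 clones and the parental cells carry a doxycycline-inducible OsTIR1 transgene (genotype Tet-OsTIR1-PURO), and each was sampled in 2 replicate libraries with DMSO and 2 with tunicamycin. Tunicamycin blocks N-linked glycosylation and so disturbs protein folding in the endoplasmic reticulum. Parental cells, as 2 samples with 2 libraries each per treatment, received 5 µg/mL of it for 4 h, whereas the labels give neither dose nor time for the IGF2BP2 knockout clones. G6 is a single clone, so an effect of its guide and a trait of that clone cannot be told apart, and the p-values below measure only the spread between libraries and between B7 and F6.

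IGF2BP2 and its relatives IGF2BP1 and IGF2BP3 encode RNA-binding proteins that attach to many mRNAs, often at methylated adenosines, and affect their stability, location and translation. IGF2BP1 and IGF2BP3 are mainly known from embryonic tissue and tumours, while IGF2BP2 is also made in many adult tissues. SEMA3A, a secreted guidance protein of the semaphorin family, acts through the receptor NRP1 together with plexins, and both SEMA3A and IGF2BP3 differed between these clones.

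The guides are shown because they are what sets G6 apart by construction. Each is given 5′ to 3′ as it lies next to its match in IGF2BP2 in GENCODE release 29 transcripts (GRCh38, called hg38 in the labels), with the 3 bases of the PAM, the motif that Cas9 needs beside its target, in capitals:
guide of clone G6: aggcgtagccggacttcagcAGG
guide of clones B7 and F6: gagctgccggaggtcgtcggCGG
Both match exon 1 of 16 in the coding part of IGF2BP2 on chromosome 3, whose mRNA runs on the minus strand. The G6 guide matches positions 185824837 to 185824856, coding bases 105 to 124. The B7 and F6 guide matches positions 185824895 to 185824914, coding bases 47 to 66, so that 38 bases lie between the sites.

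The best matches of the G6 guide in the other family members are given next because the relatives share sequence in this exon. Capitals mark the bases that differ from the guide, and the last 3 letters of each are the bases that follow the match:
best match in IGF2BP3: aCgcgtagccAgTcttcaCcagg
best match in IGF2BP1: aggcgtagccggaTttGaCcaag
Counted from 1 at the 5′ end of the guide, the IGF2BP3 match has the substitutions G2C, G11A, A13T and G19C, and lies in exon 1 at chromosome 7, positions 23469990 to 23470009. It is followed by AGG, which fits the NGG motif of Cas9, and it is the same site that the study targeted in its IGF2BP3 knockout clone D12. The IGF2BP1 match has C14T, C17G and G19C, lies at chromosome 17, positions 48997847 to 48997866, and is followed by AAG, which does not have the NGG motif. Only the longest coding transcript of each family gene was searched, and edited alleles were not analysed here.

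Total counts were 19238122 to 22426669 in the 4 G6 libraries, 16651438 to 21415667 in the 8 of B7 and F6, and 19103176 to 24913021 in the 8 parental libraries. Title and library name call the 2 untreated G6 libraries controls, but their treatment characteristic says tunicamycin. They were used as controls. HSPA5, the main chaperone of the endoplasmic reticulum, was at 816 and 999.6 CPM in them (counts scaled to the library total, TMM-normalized over all 32 libraries) and at 9624 and 9817 CPM in the tunicamycin-titled G6 libraries, against 775 to 1057 and 8979 to 9999.9 CPM in B7 and F6. DDIT3, a transcription factor induced by stress, stood at 2.42 and 2.94 CPM and at 213 in both, respectively, so both genes went with the titles. Replicate numbers marked a batch: of the 12 knockout libraries, those of replicate 1 detected 21259 to 22425 genes and those of replicate 2 detected 23423 to 24253. Markers of other cell types were low in all 3 clones. The summed level of 7 fibroblast markers was 9.53 to 11.9 CPM in G6, 9.12 to 12.3 in B7 and 4.92 to 8.98 in F6, with LUM at 0, and that of 6 leukocyte markers was at most 0.459 CPM, with CD3E at 0. Of 14 genes of colon epithelium and HCT116 identity, CDX1 and CEACAM5 had no count in any of the 12 libraries and VIL1 stayed at or under 0.138 CPM, while the epithelial keratin KRT8 stood at 1662 to 2110 CPM in G6.

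IGF2BP2 RNA was lower in G6 than in parental cells, and its difference from B7 and F6 as 1 group was not called. In G6 it was at 90.4 and 80.8 CPM with DMSO and 108 and 100 CPM with tunicamycin. B7 had 84.4, 81.6, 101 and 101 CPM and F6 had 93.7, 90.4, 114 and 113 CPM, in the same order. All 12 values lay below the parental ones, which were 158 to 197 CPM with DMSO and 183 to 205 CPM with tunicamycin. The G6 values spanned those of B7 and lay below those of F6 in both treatments (by less than the rounding at 90.4 CPM), and 80.8 CPM was the lowest of the 12. The log2 fold change of G6 was -0.04 against B7 and F6 (SE 0.0551, adjusted p 0.78; adjusted p-values here come from the quasi-likelihood test of edgeR, adjusted by Benjamini-Hochberg over all genes tested) and -0.96 against parental cells (SE 0.0363, edgeR adjusted p 1.21e-11). Against F6 alone IGF2BP2 was called lower in G6 (-0.12, edgeR adjusted p 0.0285), against B7 alone it was not called (0.055, edgeR adjusted p 0.356), and B7 was lower than F6 by 0.18 on the log2 scale (edgeR adjusted p 0.00151). Poly(A) RNA remained from a targeted gene in every clone, and protein was not measured in these data.

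IGF2BP3 RNA was higher in G6 than in any other line of this comparison. It stood at 102 and 88.1 CPM with DMSO and at 99.3 and 90.1 CPM with tunicamycin in G6. B7 had 70.8, 62, 67.9 and 61.3 CPM, F6 had 72.7, 65.2, 69.3 and 71.9 CPM, and the 8 parental libraries had 69.6 to 83.6 CPM. The 4 G6 values were the highest of these 20, and B7, F6 and parental cells overlapped. The log2 fold change was 0.49 against B7 and F6 (SE 0.0462, edgeR adjusted p 0.000107) and 0.36 against parental cells (SE 0.0351, edgeR adjusted p 5.04e-06). It was 0.55 against B7 alone and 0.44 against F6 alone. Without the G6 libraries with conflicting labels it was 0.49 (edgeR adjusted p 0.0251), and with DMSO libraries only it was also 0.49 (edgeR adjusted p 0.074). Besides DMSO only, it was not called with tunicamycin libraries only, with summed counts or within 1 replicate number (edgeR adjusted p up to 0.172). Over all alternatives the IGF2BP3 estimate was 0.44 to 0.55. IGF2BP1, the third family member, did not exceed 0.633 CPM in any of these 20 libraries, and its difference of -0.40 (SE 0.378) was not called.

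Of 8 genes next to IGF2BP2, 1 differed between G6 and the other clones, where 5.7% of all genes tested did (875 of 15356, adjusted p under 0.05). ETV5, an ETS-family transcription factor, rose by 0.46 on the log2 scale (SE 0.114, edgeR adjusted p 0.0346). None of the 8 was called against parental cells, where 7.54% of genes were (1177 of 15611; 3.41% higher and 4.13% lower).

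SEMA3A was highest in G6 and lowest in F6, with a wider gap between B7 and F6 than between G6 and B7. G6 had 130 and 139 CPM with DMSO and 146 and 136 CPM with tunicamycin. B7 had 88.1, 77.8, 87.5 and 73.8 CPM, F6 had 6.97, 5.61, 5.8 and 5.32 CPM, and the parental libraries had 37 to 56.6 CPM with DMSO and 33.3 to 51.9 CPM with tunicamycin. The order was therefore F6, parental, B7 and G6 from low to high, with no overlap between neighbours. Against B7 and F6 together the log2 fold change was 1.66 with an SE of 0.741, and it was not called (edgeR adjusted p 0.231). Against B7 alone it was 0.77 (edgeR adjusted p 3.44e-10), against F6 alone 4.53 (edgeR adjusted p 7.22e-21) and against parental cells 1.67 (SE 0.0784, edgeR adjusted p 2.62e-10). B7 and F6, made with the same guide, differed by 3.77 (edgeR adjusted p 5.41e-19). SEMA3A (ENSG00000075213_11) lies on the minus strand of chromosome 7, positions 83955777 to 84492724.

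NRP1, the SEMA3A receptor that also binds VEGF, had the largest increase in G6 among the genes named here, and G6 was near the parental level while B7 and F6 were not. Its levels in G6 were 10.9 and 13.6 CPM with DMSO and 15.4 and 19.9 CPM with tunicamycin. In B7 they were 1.58, 2.07, 1.88 and 2.53 CPM, and in F6 3.27, 2.97, 4.92 and 3.85 CPM. The parental libraries had 12.3 to 14.6 CPM with DMSO and 17 to 19.4 CPM with tunicamycin, so G6 lay partly within, partly just below or above the parental ranges, and B7 and F6 lay below them. NRP1 differed in G6 by a log2 fold change of 2.37 against B7 and F6 (SE 0.216, edgeR adjusted p 8.51e-05) and -0.08 against parental cells (SE 0.0695, edgeR adjusted p 0.528). NRP1 (ENSG00000099250_18) lies on chromosome 10, positions 33177492 to 33336262.

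**Figure D1:**
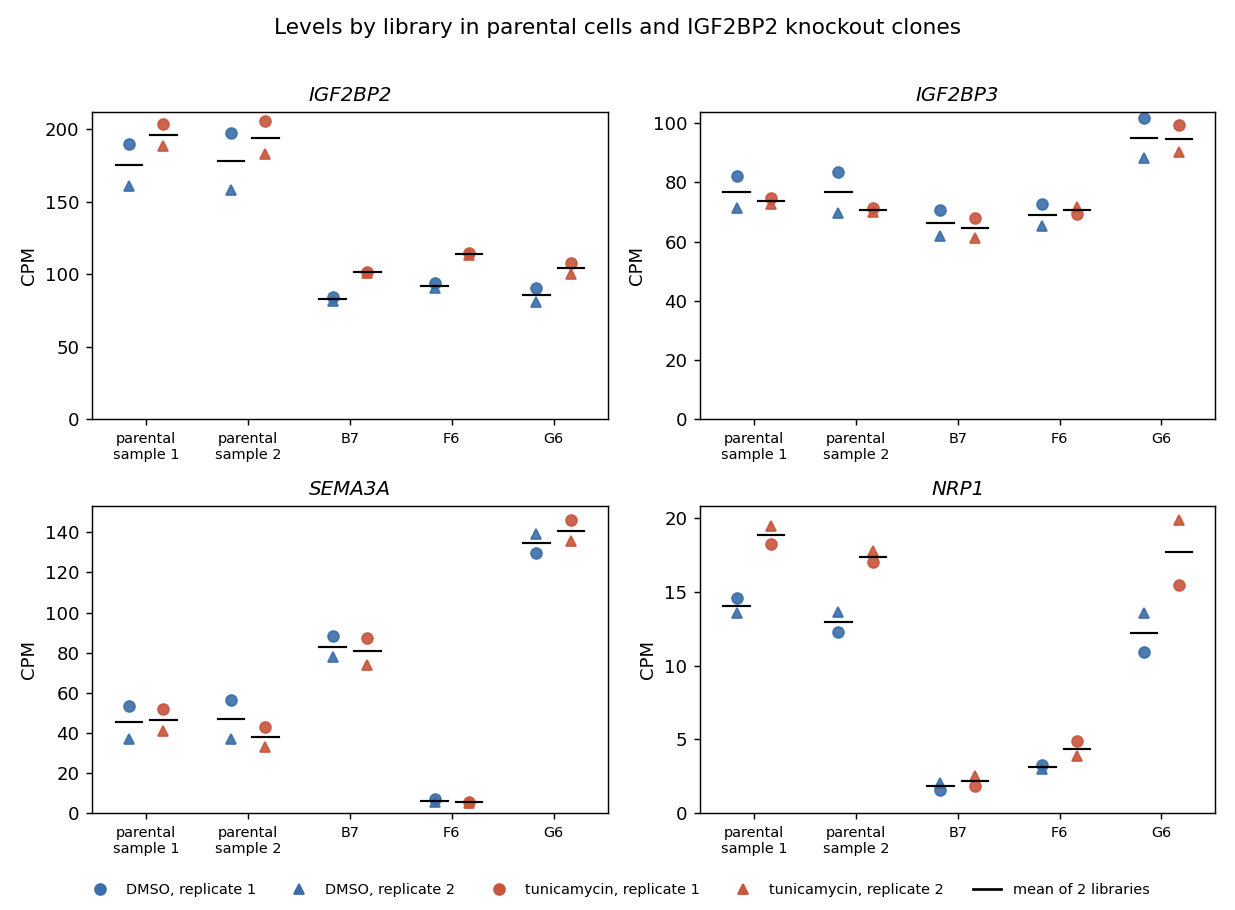
Levels in CPM (y axes from 0) of IGF2BP2, IGF2BP3, SEMA3A and NRP1 in 2 parental samples and clones B7, F6 and G6 (x axis), with 1 point per library and a bar at the mean of 2. IGF2BP3 in G6 lay at 88.1 to 102 CPM, above all other libraries shown, while NRP1 in G6 lay with the parental libraries.

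Among 16 semaphorin genes tested, 1 was called between G6 and the other clones (all genes: 5.7%), and their median log2 difference was 0.00, as it was for all genes. It was SEMA3C, which also signals through neuropilins, with 18.4 to 20.7 CPM in G6, 26.5 to 37.4 CPM in B7 and F6 and 17.6 to 24.4 CPM in parental cells. G6 lay below B7 and F6 throughout and overlapped the parental libraries, with a log2 fold change of -0.79 against the clones (SE 0.0653, edgeR adjusted p 4.24e-05) and -0.16 against parental cells (edgeR adjusted p 0.143). Of 9 semaphorin receptors, NRP1 rose and PLXNB2, a receptor for class 4 semaphorins, fell by 0.27 on the log2 scale (SE 0.0417, edgeR adjusted p 0.00293).

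Across the transcriptome, 422 genes were higher (2.75%) and 453 lower (2.95%) in G6 than in B7 and F6, with a median size of 0.37 on the log2 scale among those called. Only 52 of the higher and 36 of the lower genes differed by more than 1 on that scale. Both G6 libraries lay beyond all 4 of the others in DMSO and again in tunicamycin for 282 of the higher and 350 of the lower genes. Over all genes tested, called or not, such a separation was found upward in 2.73% and downward in 3.63%. By the number of genes called, G6 was not farther from its sister clones than they were from each other. With the line as a term in the fit, B7 and F6 differed in 4546 genes (29.6%, 2211 higher and 2335 lower in B7), G6 and B7 in 3276 and G6 and F6 in 3549. The count of 875 is lower because in that comparison the gap between B7 and F6 is part of the residual spread; measured against the mean of both with the line as a term, G6 differed in 3080 genes. The count was 68 without the G6 libraries of conflicting label, 9 with DMSO and 8 with tunicamycin libraries only, and 402 to 513 when any 1 G6 library was left out. Within replicate 1 it was 6 and within replicate 2 it was 15. The first 4 principal components of the 12 libraries went with treatment (33.7% of the variance), with F6 against B7 and G6 (17.3%), with replicate number (14.7%) and with G6 against B7 and F6 (10.7%). On component 4 the G6 libraries ran from -29.7 to -12.6 and the others from -0.26 to 19.2.

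**Figure D2:**
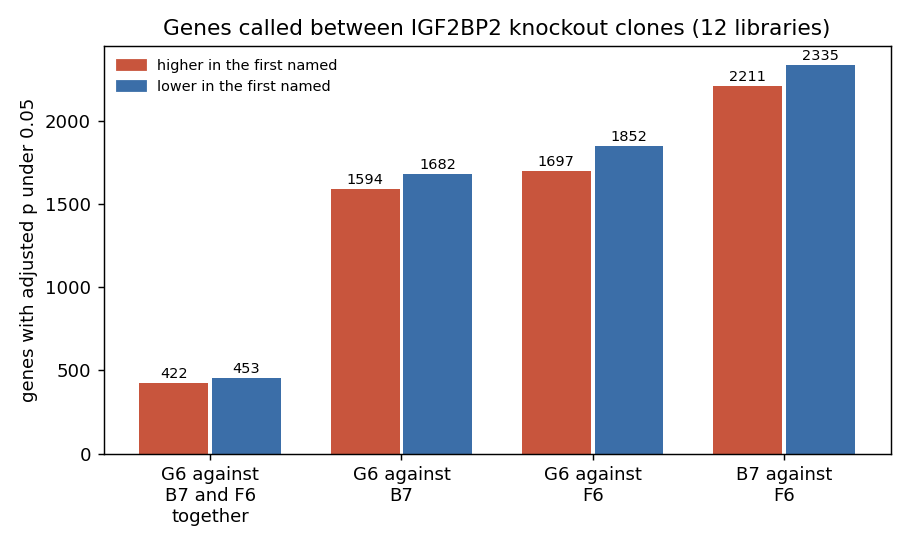
Number of genes with an adjusted p under 0.05 (y axis) in 4 comparisons of the 12 IGF2BP2 knockout libraries (x axis), in red higher and in blue lower in the clone named first. The bars for B7 against F6 (2211 and 2335) are the tallest, and those of G6 against B7 and F6 together (422 and 453) come from a fit in which B7 and F6 are 1 group.

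Genes of chromosome 8 stood apart in B7, not in G6. Over 535 of its genes the median log2 difference of G6 from B7 and F6 was -0.26, with 467 genes (87.3%) below 0, whereas the medians of the other chromosomes were -0.03 to 0.04. Against F6 alone the chromosome 8 median was -0.01, against parental cells 0.00 and against B7 alone -0.47. In the single libraries, the median difference from parental libraries of the same treatment and replicate number was -0.01 to 0.00 in G6, -0.03 to 0.03 in F6 and 0.47 to 0.48 in B7. On chromosome 8, 47 genes were called lower and 1 higher in G6, and the count over all genes without chromosome 8 was 890. DNA copy number was not measured in these data. Of the genes named below, MAL2, GRHL2 and SLC20A2 lie on chromosome 8, and each is also given against F6 alone.

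**Figure D3:**
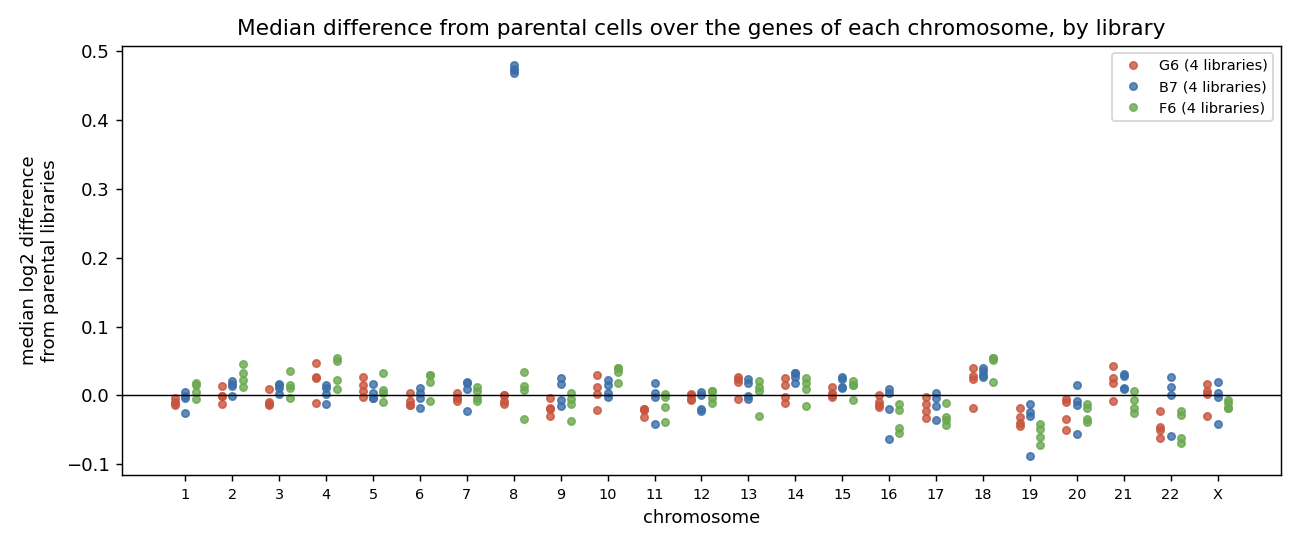
Median log2 difference from parental libraries (y axis) over the genes of each chromosome with at least 100 genes tested (x axis), with 1 point for each of the 4 libraries of G6, B7 and F6. The 4 B7 points of chromosome 8 lie at 0.47 to 0.48, and all G6 points lie between -0.06 and 0.05.

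The 12 named genes with the largest increases in G6, chosen among called genes with a mean count of at least 100 and G6 above all libraries of B7 and F6 in each treatment, had log2 fold changes from 1.07 to 2.37, and in 8 of them the parental mean lay between G6 and both other clones in each treatment. Of the 12, 7 were also called higher than in parental cells and 5 were not. Besides NRP1, TNIK, a kinase that works with TCF4 in Wnt signalling, was at the parental level in G6 alone of the clones. Its levels in G6 were 79.9 and 63.2 CPM with DMSO and 82.4 and 64.7 CPM with tunicamycin. B7 had 26.2, 18, 25.7 and 21 CPM and F6 had 22.4, 14.9, 23.8 and 16.5 CPM, while the parental libraries had 56.5 to 89.1 CPM. G6 lay within the parental range in both treatments, and B7 and F6 lay below it without overlap. G6 had a log2 fold change of 1.80 against B7 and F6 (SE 0.0696, edgeR adjusted p 6.71e-08) and 0.02 against parental cells (edgeR adjusted p 0.844). TNIK was the only named gene that was called under all alternatives, with an edgeR adjusted p of at most 0.0155. It lies on chromosome 3, as IGF2BP2 does, at positions 171061339 to 171460408.

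Genes of the cell surface and matrix among these were COL13A1, which encodes a transmembrane collagen, and LAMB1, a basement membrane laminin chain that came from the laminin list. COL13A1 stood at 11.6 to 14.7 CPM in G6, 3.44 to 7.31 CPM in B7 and F6 and 12.3 to 14.8 CPM in parental cells, so G6 overlapped the parental libraries and the others did not. Its log2 fold change was 1.30 (SE 0.169, edgeR adjusted p 0.00107). LAMB1 had 68.5 and 67.3 CPM with DMSO and 73.2 and 67.2 CPM with tunicamycin in G6. B7 and F6 together had 36.9 to 40.3 CPM, with a difference of 0.06 between them (edgeR adjusted p 0.351), and parental cells had 53.2 to 62.8 CPM. G6 was thus above and the other clones below all parental libraries, with a log2 fold change of 0.85 (SE 0.0403, edgeR adjusted p 3.88e-07) against the clones and 0.25 against parental cells (edgeR adjusted p 0.000851).

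Among signalling genes, FGF2, a fibroblast growth factor, was at 15.2, 14.3, 15.5 and 17.9 CPM in G6 (DMSO, then tunicamycin), at 5.27 to 8.78 CPM in B7 and F6 and at 9.24 to 13.9 CPM in parental cells. The difference was 1.11 (SE 0.109, edgeR adjusted p 0.000159), and G6 exceeded every parental library. TESC, a calcium-binding protein that regulates a sodium-proton exchanger, was at 15.7, 13.6, 13.2 and 11 CPM in G6, 5.21 to 7.39 CPM in B7 and 3.07 to 4.41 CPM in F6. It rose by 1.40 (SE 0.209, edgeR adjusted p 0.00233) and by 0.91 against parental cells (edgeR adjusted p 2.65e-07), where B7 overlapped the parental 6.2 to 9.15 CPM. SMARCA2, an ATPase of the SWI/SNF chromatin remodelling complex, was at 10.1 to 12.5 CPM in G6, 3.4 to 7.54 CPM in B7 and F6 and 7.57 to 9.11 CPM in parental cells. CDKN2B, a cell cycle inhibitor, also belongs here and is described with tunicamycin below. The remaining members were MB21D2 (1.59), SYTL2 (1.31), a Rab-binding protein of vesicle transport, DHRS2 (1.11), a short-chain dehydrogenase, and AADAC (1.07), an esterase, with log2 fold changes in brackets, and C6orf141, at 13.5 to 28.8 CPM in G6 and 6.46 to 11.3 CPM in B7 and F6. In each of these 5 the parental mean lay between G6 and the other clones, and SYTL2 and C6orf141 were not called against parental cells (edgeR adjusted p 0.178 and 0.0805).

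The 12 named genes with the largest falls, among called genes with a mean count of at least 100 and G6 below all libraries of B7 and F6 in each treatment, had log2 fold changes from -0.96 to -2.45, and all 12 were also lower than in parental cells. In 11 the parental mean lay between G6 and the other clones in each treatment. Single libraries overlapped in part: G6 was below all parental libraries in both treatments in 9 of the 12, and B7 and F6 were above them in 7. MAL2, a membrane protein of apical transport in epithelial cells, had 27.3 and 18.1 CPM with DMSO and 25.2 and 20.6 CPM with tunicamycin in G6. B7 had 110, 86.3, 117 and 93.4 CPM, F6 had 166, 130, 160 and 135 CPM, and parental cells had 47.8 to 72.5 CPM. The 3 ranges did not overlap, and the log2 fold change was -2.45 against B7 and F6 (SE 0.168, edgeR adjusted p 6.9e-06), -2.70 against F6 alone and -1.38 against parental cells (edgeR adjusted p 2.27e-12).

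S100A14, a calcium-binding protein of epithelia, had 23.7, 16.3, 27.4 and 19.9 CPM in G6. B7 had 49.2, 34.8, 59.3 and 48.2 CPM, F6 had 103 to 163 CPM, and parental cells had 31.1 to 63.6 CPM. B7 was therefore near parental cells, F6 above and G6 below them. S100A14 had a log2 fold change of -2.05 with an SE of 0.412 (edgeR adjusted p 0.0122), and it lost its call without G6 DMSO replicate 1, G6 DMSO replicate 2 or G6 tunicamycin replicate 2 (edgeR adjusted p 0.0532, 0.0557 and 0.0552). GRHL2, a transcription factor that maintains epithelial junctions, was at 4.77 to 7.53 CPM in G6, 11.8 to 17.8 CPM in B7, 26.5 to 29 CPM in F6 and 8.24 to 10.9 CPM in parental cells. Its log2 fold change was -1.80 (SE 0.282, edgeR adjusted p 0.00298), -2.19 against F6 alone and -0.63 against parental cells.

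LMAN1, a cargo receptor that carries glycoproteins such as coagulation factors from the endoplasmic reticulum, was lower in G6 than in B7, F6 and parental cells. It was at 58.2 and 60.1 CPM with DMSO and 108 and 110 CPM with tunicamycin. B7 had 144, 136, 208 and 199 CPM, F6 had 154, 153, 196 and 214 CPM, and parental cells had 134 to 154 CPM with DMSO and 179 to 221 CPM with tunicamycin. B7 and F6 overlapped parental cells, and G6 lay below them in both treatments. The log2 fold change was -1.10 against B7 and F6 (SE 0.0741, edgeR adjusted p 6.5e-06), -1.08 against parental cells (edgeR adjusted p 1.66e-08) and -0.09 between B7 and F6 (edgeR adjusted p 0.318). LMAN1 lies on chromosome 18, positions 59327823 to 59359962. ATP8B1, a phospholipid flippase, is on the same chromosome at positions 57646426 to 57803315, and stood at 6.54 to 8.5 CPM in G6, 12.4 to 16.6 CPM in B7, 24.5 to 28.6 CPM in F6 and 9.16 to 11.7 CPM in parental cells.

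CAV1, the main protein of caveolae, was the most abundant of the genes that fell, at 341 and 318 CPM with DMSO and 319 and 307 CPM with tunicamycin in G6. B7 and F6 had 554 to 717 CPM and parental cells 439 to 531 CPM, with no overlap between the 3. CAV1 had a log2 fold change of -0.96 (SE 0.0577, edgeR adjusted p 2.76e-06) and against parental cells -0.57 (edgeR adjusted p 2.78e-10). Among the alternatives it lost its call only under the cut at a log2 change above 1, and its edgeR adjusted p was at most 0.0488. Of the rest, SERINC2, a serine incorporator, was at 21.4 to 24.3 CPM in G6 and 42.2 to 58.1 CPM in B7 and F6, against 24.1 to 32.5 CPM in parental cells. SLC20A2, a phosphate transporter, differed by -1.08 and by -1.32 against F6 alone, TSPAN18, a tetraspanin, by -1.02, and TMEM125 by -1.40. PDLIM1, an adaptor of the actin cytoskeleton, differed by -1.10 and the long noncoding RNA UCA1 by -1.01. Their place below every library of B7 and F6 within each treatment is a condition of being named.

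**Figure D4:**
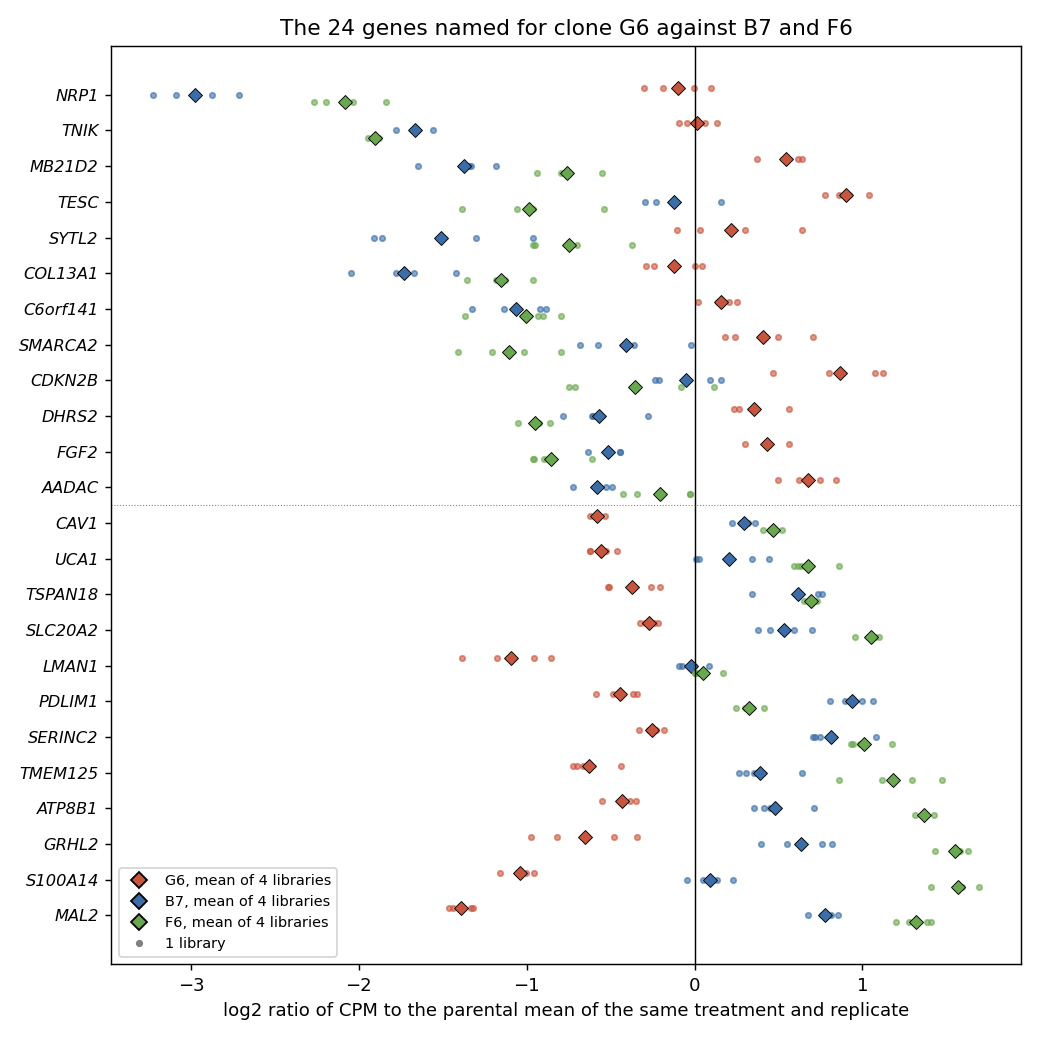
Log2 ratio of CPM to the mean of the parental libraries of the same treatment and replicate (x axis) for the 12 genes named as higher (top) and the 12 named as lower (bottom), with a small point per library and a diamond at the mean of 4. Parental cells are at 0: NRP1 and TNIK in G6 lie at -0.10 and 0.01 while B7 and F6 are far below, and LMAN1 is near 0 in B7 and F6 and at -1.09 in G6.

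The 24 genes differ in how much they depend on the libraries used. In the fits with DMSO libraries only, with tunicamycin libraries only or with 1 replicate number, 17 to 21 of the 24 lost their call, although all kept their direction. Without the G6 libraries of conflicting label 12 of 24 lost it: SYTL2, COL13A1, TESC, SMARCA2, AADAC, S100A14, GRHL2, ATP8B1, TMEM125, PDLIM1, SLC20A2 and UCA1. With counts summed per line and treatment 17 of 24 lost it, NRP1 and FGF2 among them. With DMSO libraries only, for instance, the log2 fold change of NRP1 was 2.30 (edgeR adjusted p 0.0761) and that of FGF2 1.17 (edgeR adjusted p 0.165).

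In the groups of genes examined, few members were called, and each count stands against 5.7% over all genes. Of 9 tested genes of colon epithelium and HCT116 identity, 1 fell and none rose, and 7 of the 9 had a negative log2 difference, with a median of -0.26 (all genes: 0.00). The one called was HNF4A, a transcription factor of gut and liver epithelium, at 0.505, 0.792, 0.482 and 0.674 CPM in G6 against 2.56 to 3.58 CPM in B7 and F6 and 2.49 to 4.53 CPM in parental cells. These levels were low, but G6 did not overlap the others, and the difference was -2.34 (SE 0.181, edgeR adjusted p 2.26e-05). B7 and F6 also differed in this list, with 7 of the 9 called lower in B7, 1 called higher and a median of -0.47. Over all genes, 15.2% were called lower in B7 than in F6 and 14.4% higher. Against parental cells, where 7.54% of all genes were called and 4.13% were lower, 5 of the 9 fell in G6. Among them was KRT8, by 0.33 on the log2 scale (edgeR adjusted p 4.65e-06). Of 7 mesenchymal genes 1 fell: FN1, the matrix protein fibronectin, at 12 to 15.9 CPM in G6, 18.6 to 25.5 CPM in B7 and F6 and 14.6 to 18.4 CPM in parental cells (difference -0.70, SE 0.111, edgeR adjusted p 0.00341). The list's median was 0.66, opposite in sign to its only called member. ZEB1, a repressor of epithelial genes, had a difference of 0.91 that was not called (SE 0.394, edgeR adjusted p 0.215), with 5.83 to 8.97 CPM in G6, 4.88 to 8.65 CPM in B7 and 1.65 to 2.29 CPM in F6. In G6 against parental cells ZEB1 was called higher and FN1 lower among these 7 (all genes: 3.41% and 4.13%). Between B7 and F6, ZEB1 was 1 of 4 genes of the list called higher in B7, with none lower.

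Of 11 genes of intestinal stem cells and Wnt targets, SOX9 rose and NKD1, a feedback inhibitor of Wnt, fell. SOX9, a transcription factor of intestinal crypts, was at 158, 110, 68.1 and 45.4 CPM in G6 and followed the parental libraries (108 to 148 CPM with DMSO, 45 to 76.4 CPM with tunicamycin), while B7 and F6 had 64.1 to 104 CPM and 20.8 to 44.8 CPM. The difference was 0.68 from the clones (SE 0.11, edgeR adjusted p 0.00365) and 0.03 from parental cells (edgeR adjusted p 0.833). Of 10 laminin chains, LAMB1 rose and LAMC1 fell by 0.21 (edgeR adjusted p 0.0146), and of 13 integrin subunits only ITGA10 was called, at up to 1.45 CPM. Of 10 genes of the EGF receptor family, ERBB3, a receptor for neuregulins, fell by 0.31 (SE 0.073, edgeR adjusted p 0.0293) and stood at the parental level in G6 (difference 0.01). Others of this list did not: 6 of 9 tested were called lower in G6 than in parental cells and none higher. They were AREG, EGFR, ERBB2, EREG, HBEGF and TGFA, where 4.13% of all genes were called lower.

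Of 18 cholesterol synthesis genes, 4 fell and none rose, with a median of -0.13. Among them were SREBF2, the transcription factor of the pathway, and the enzymes MVD (-0.24) and SQLE (-0.30, SE 0.0479, edgeR adjusted p 0.00316). SQLE stood at 52.6 to 66.2 CPM in G6, 68.4 to 80.7 CPM in B7 and F6 and 64.5 to 70.1 CPM in parental cells. SQLE lies on chromosome 8, and its difference against F6 alone was -0.28 (edgeR adjusted p 0.000201). Of 18 p53 targets, 2 fell and none rose against B7 and F6, with a median of -0.22. They were BAX, a mediator of apoptosis (-0.38, SE 0.073, edgeR adjusted p 0.00928), and FDXR, a mitochondrial reductase (-0.29, edgeR adjusted p 0.0137). Against parental cells the median was 0.08, with GDF15, TP53INP1 and ZMAT3 called higher and BAX and FDXR lower. Over all genes, 3.41% were called higher there and 4.13% lower. No gene was called against B7 and F6 among 15 interferon-stimulated genes, 15 proliferation genes, 14 genes of BMP, ID and TGF-beta signalling or 3 cancer-testis genes. Between B7 and F6, 9 of the interferon-stimulated genes were called lower in B7 and 8 of the proliferation genes higher. Of the BMP, ID and TGF-beta genes 9 were higher and 1 lower (all genes: 14.4% higher, 15.2% lower). This gap is part of the residual spread, so the lack of calls does not show that G6 was like B7 and F6. Against parental cells 3 interferon-stimulated genes were lower in G6, and of BMP, ID and TGF-beta genes 2 were higher and 2 lower.

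Among 13 tested mRNAs reported as targets of IGF2BP proteins, 1 fell and none rose in G6 against B7 and F6, with a median of -0.01. It was ABCB1, a drug efflux pump, at 3.86, 3.92, 6.69 and 7.31 CPM in G6 and at 5.57 to 12 CPM in B7 and F6 (difference -0.62, SE 0.131, edgeR adjusted p 0.0162). Between B7 and F6, 5 of the 13 were called higher in B7 and 7 lower, where 14.4% and 15.2% of all genes were. That gap is part of the residual spread when both are 1 group, so few calls do not show that these mRNAs were alike between clones. Against parental cells 1 of 14 such mRNAs was called higher and 5 lower, where 7.54% of all genes were called. The one called higher was CDK6, a cell cycle kinase, by 0.52 (SE 0.0372, edgeR adjusted p 1.02e-07). CDK6 stood at 193 to 223 CPM in G6, 182 to 215 CPM in B7, 82.1 to 107 CPM in F6 and 133 to 162 CPM in parental cells, so G6 overlapped B7 and not F6.

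The response to tunicamycin differed between G6 and the other clones in 1 of 15356 genes (0.00651%), while 1041 had an unadjusted p under 0.05 and DESeq2 called 2. The gene was CDKN2B, which encodes the cyclin-dependent kinase inhibitor p15. In G6 it went from 12.1 and 9.8 CPM with DMSO to 37.5 and 33.5 CPM with tunicamycin. B7 went from 7.44 and 7.91 to 15.1 and 13.3 CPM, F6 from 7.54 and 6.69 to 10.9 and 9.17 CPM, and parental cells from 6.48 to 7.69 CPM to 14.3 to 19 CPM. G6 was above all others in both treatments, and by more with tunicamycin. Its log2 response exceeded that of B7 and F6 by 0.99 (SE 0.146, edgeR adjusted p 0.0112). It lost the call when G6 DMSO replicate 1, G6 tunicamycin replicate 1, F6 DMSO replicate 1 or B7 tunicamycin replicate 2 was left out (edgeR adjusted p 0.0572, 0.089, 0.0527 and 0.0558), against B7 alone (0.81, edgeR adjusted p 0.239) and in the fit without the replicate block (0.99, edgeR adjusted p 0.817). CDKN2B lies on chromosome 9, positions 22002903 to 22009363, at a locus with an antisense gene. The library kit keeps the strand, but whether counting used it is not given in the sources used here, so reads of the 2 genes may be mixed.

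**Figure D5:**
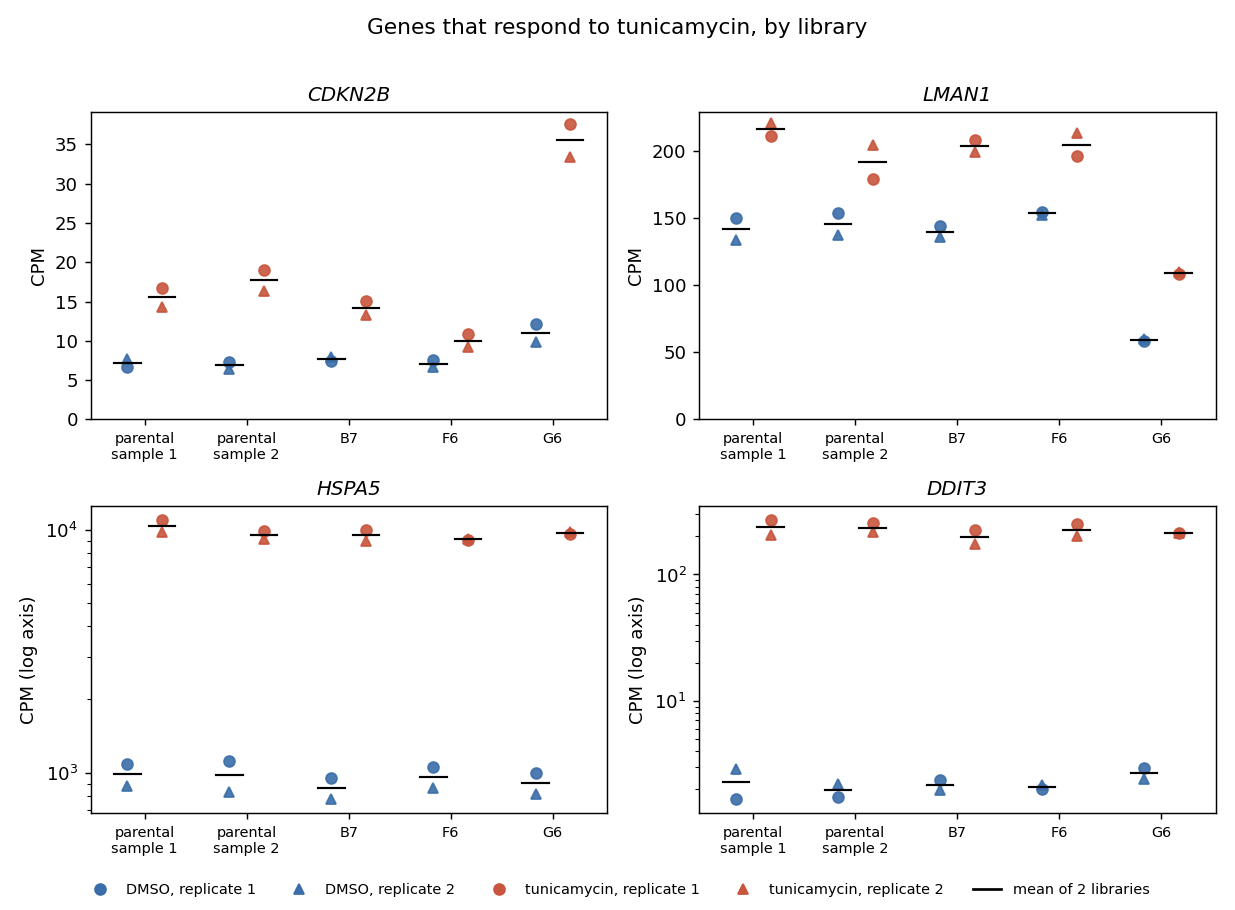
Levels in CPM of CDKN2B and LMAN1 (linear axes from 0) and of HSPA5 and DDIT3 (log axes) in 2 parental samples and clones B7, F6 and G6, with DMSO in blue and tunicamycin in red, 1 point per library and a bar at the mean of 2. CDKN2B reaches 33.5 to 37.5 CPM in G6 with tunicamycin, while HSPA5 and DDIT3 responses of all lines lie together.

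The 3 arms of the unfolded protein response, by which cells react when proteins misfold in the endoplasmic reticulum, had responses of similar size in the 3 clones, though no test shows them equal. Log2 responses are given as means over the genes of an arm. For 14 genes of the ATF6 arm, which raises chaperones, the mean was 2.15 and 2.37 in replicates 1 and 2 of G6. It was 2.21 and 2.33 in B7 and 2.08 and 2.25 in F6. For 19 genes of the IRE1/XBP1 arm, which raises degradation and transport factors, it was 0.97 and 1.16 in G6, 1.04 and 1.10 in B7 and 1.00 and 1.08 in F6. For 17 genes of the PERK/ATF4 arm, which raises amino acid and stress genes, it was 2.71 and 2.82 in G6, 2.69 and 2.67 in B7 and 2.95 and 2.88 in F6. The ranges of G6 and both other clones overlapped in the ATF6 and IRE1/XBP1 arms, and in the PERK/ATF4 arm G6 lay between B7 and F6. Averaged over treatments, SLC7A11, a cystine transporter (0.29, edgeR adjusted p 0.0231), and TRIB3, a stress pseudokinase (0.26, edgeR adjusted p 0.0405), of the PERK/ATF4 arm rose in G6, and no gene of the other 2 arms was called. Over all genes 2.75% were called higher and 2.95% lower, so with 14 to 19 genes per arm these counts do not set the arms apart. LMAN1 had the response nearest to a call among the genes named here besides CDKN2B, with a log2 difference of 0.39 (SE 0.0746, edgeR adjusted p 0.141).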

How the data were processed

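Poly(A) RNA of 32 HCT116 libraries was counted per gene. The authors deposited whole-number counts for 60660 gene identifiers, of which 22333 had no count and 40718 carried a symbol of their own. STAR 2.7.5c and hg38 are named in the submitters' processing notes; the counter, the annotation and the use of strand are not given in the sources used here. Groups were taken from sample titles; whether replicates were separate cultures is not stated, so p-values measure only the spread between these libraries, which may be technical.

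The 12 IGF2BP2 knockout libraries were fitted with edgeR 4.0.16 in R 4.3.3 (TMM, filterByExpr, quasi-likelihood test, Benjamini-Hochberg, threshold 0.05) on the counts as deposited, with treatment and replicate number as terms, and G6 with parental libraries likewise. The fits of B7 against F6 and of the tunicamycin response had the line as a term. These choices, the lists and the members compared were made with earlier results of these data known. Named beyond the lists were the 12 largest increases and 12 largest decreases among called genes with a symbol, a mean count of at least 100 and both G6 libraries beyond all 4 others in each treatment, and up to 3 genes each way for the response. List genes were matched by symbol (330 of 331). Some list genes are not reported here. SE values come from the quasi-likelihood F statistic. Replicate numbers were treated as a pairing: deviations from group means correlated over 0.1 in all 15 pairs of same-numbered knockout libraries (r 0.140 to 0.443). Replicate libraries differed beyond sampling noise (chi-square per degree of freedom 4.59 to 13.3).

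Alternatives were no replicate term, DESeq2 1.42.0 and its size factors, other filters, a log2 change above 1, 1 treatment, other comparison lines, all 32 libraries, summed counts, and libraries left out. In simulated counts, 200 genes were changed by a log2 value of 1. The comparison of G6 with B7 and F6 recovered 156 of 200, with 3.11% of its calls false, and the comparison of responses recovered 139, with 7.95% false. At a log2 value of 0.5 the comparison of G6 with B7 and F6 recovered 103 of 200, with 7.21% false. For that comparison libraries were drawn independently, without deviations shared by the libraries of a clone. Its simulated shares therefore do not give the share of false calls in the real data. Gene positions come from GENCODE release 29. Figures were drawn with matplotlib 3.10.9.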

Additional observations from a re-analysis of the deposited data

Results flagged for a closer look

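The tunicamycin response of CDKN2B differed between clone G6 and clones B7 and F6 by a test of the difference itself, an interaction of clone and treatment, with a log2 difference of 0.99 (edgeR adjusted p 0.0112). In G6 it went from 12.1 and 9.8 CPM with DMSO to 37.5 and 33.5 CPM with tunicamycin. Over its alternatives the adjusted p from edgeR or DESeq2 reached 0.817, which was the value without the replicate block. In the parental libraries, 56 sets of 4 values were examined for a library far from the rest, and none was found.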

How the results depend on the processing

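The count of genes called between G6 and the pair B7 and F6 (875) was 512 without the replicate block, 1646 without a filter on low counts, 88 with a log2 change above 1, 9 with DMSO and 8 with tunicamycin libraries only, 68 without the G6 control libraries, 13 with counts summed per line and treatment, 3276 against B7 alone, 3549 against F6 alone, 2930 with all 32 libraries and 3080 with the line as a term. Leaving out libraries or a replicate number gave 6 to 814. All calls kept in the 512, 68, 13, 9 and 8 were among the 875 and kept their direction. DESeq2 called 1268, with 846 of the 875 among them in the same direction. For G6 against parental cells (1177) the count was 228 without the replicate block, 41 above a log2 change of 1, 352 with DMSO and 85 with tunicamycin libraries only, 298 without the G6 control libraries, 641 with summed counts, 654 without parental sample 1, 550 without parental sample 2, and 61 to 1177 on leaving out libraries or a replicate number. For B7 against F6 (4546) it was 2959 without the replicate block, 438, 3014 and 1952 under the same 3 restrictions (size of change, DMSO only, tunicamycin only), and 1907 to 4987 on leaving out libraries. For the difference in response (1) it was 0 without the replicate block and against B7 alone, 2 with DESeq2 and against F6 alone, 193 without a filter, and 0 to 586 on leaving out libraries, with 306 without G6 tunicamycin replicate 2 and 64 without F6 tunicamycin replicate 2. The cause of these shifts was not tested. The counts without a filter are doubtful: in that fit edgeR gave SEMA3A, which differs widely between B7 and F6, an adjusted p of 2.33e-81, against 0.231. IGF2BP2 was called lower against F6 alone (-0.12) and otherwise not called, and it changed sign, to 0.055 against B7 alone and 0.0094 without replicate 2; leaving out libraries gave -0.085 to 0.0094. With 2 libraries per clone and treatment, fits on 1 treatment or 1 replicate number hold few residual degrees of freedom. For IGF2BP1, under 1 CPM in all libraries, a difference was not detectable at this depth.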

Other observations

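Ribosomal protein genes, a list chosen after their values were seen, had a lower tunicamycin response in G6 than in B7 and F6 in 72 of 77 cases, with a median log2 difference of -0.16 (all genes: 0.01). None was called by edgeR, 38 had an unadjusted p under 0.05 (all genes: 1041 of 15356), and these genes share their libraries' composition. Their summed level in G6 went from 57633 to 51934 CPM in replicate 1 and from 46936 to 49666 CPM in replicate 2, so the fall was seen in 1 replicate only. In B7 it went from 53068 to 53088 and from 45059 to 47171 CPM, and in F6 from 55640 to 58259 and from 45157 to 49117 CPM.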
